A study of Mus musculus with 7 samples.

Results

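A set of 10 enzyme and transporter genes of the epidermal lipid barrier was followed through 2 single-cell RNA sequencing (scRNA-seq) libraries of mouse ear keratinocytes. The genes, all present in the keratinocyte table among its 26383 listed genes, were Alox12b, Aloxe3, Abca12, Cers3, Elovl4, Elovl6, Ugcg, Pnpla1, Scd1 and Mgst1, that is 10 of the 10 symbols chosen. Recipients were male CD45.2 C57BL/6 mice that had been lethally irradiated and given female CD45.1 C57BL/6 bone marrow, and CD45- keratinocytes were sorted from the epidermis 3 weeks later. One library is labelled as bone marrow transplant (BMT) and 1 as BMT plus T-cells (BMT + T cells), while the design text of the series describes an injection of CD4 cells plus Matahari CD8 cells for all recipients, so the comparison below is between 2 labels. Each label has 1 library, made by the study's account from pooled mice, and no age is given.

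The lipid barrier is made late in keratinocyte life. Fatty acids are elongated, joined to sphingoid bases as ceramides, carried into lamellar granules and finally linked to the protein envelope of the dead cornified cell. ELOVL6 and ELOVL4 lengthen fatty acids at successive stages, with ELOVL4 making the ultra-long chains, CERS3 joins those chains to the sphingoid base, and UGCG adds glucose. ABCA12 moves the glucosylated lipid into the granules, PNPLA1 places linoleate on the ceramide tail, and the lipoxygenases ALOX12B and ALOXE3 oxidise that linoleate. SCD1 desaturates fatty acids and is known for its role in the sebaceous gland, and MGST1 is a membrane glutathione transferase. Loss of several of these enzymes causes ichthyosis or a lethal water leak in newborn skin.

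The BMT library held 2836 cells and 27817737 unique molecular identifiers (UMIs, 1 per captured transcript molecule), and the BMT + T cells library 2590 cells and 24959785 UMIs. Cells carry the study's own 5 cluster names. Basal cells numbered 1684 and 1712 in the BMT and BMT + T cells libraries, Differentiated cells 493 and 353, Follicular cells 278 and 259, KC_Four cells 225 and 150 and KC_Five cells 156 and 116. Median UMIs per cell were similar between libraries within a cluster but ranged from 7913 in Follicular to 16877.5 in KC_Four. Of the markers looked up, Krt14 and Krt5 were highest in Basal, Krt10 and Krtdap in Differentiated, and Krt79 and Krt17 in Follicular. Top2a was highest in KC_Four and Cdc20 in KC_Five. Not all markers fitted the names, as the differentiated markers Lor and Ivl were higher elsewhere. Lor stood at 0.231 and 0.227 UMIs per 10000 in KC_Four. Ivl stood at 0.364 and 0.323 in Follicular against 0.126 and 0.0773 in Differentiated. The Differentiated cells had abundant RNA of spinous-layer and little of granular-layer markers: Krt10 stood at 154.3 and 142.8 UMIs per 10000 while Lor, a granular-layer envelope gene, stood at 0.113 and 0.144 and Flg2 was at 1 and 0 UMIs. The 2 libraries shared 2 cell barcodes.

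Levels are given as UMIs of the gene per 10000 UMIs of all cells in a cluster, first in BMT and then in BMT + T cells. Intervals are exact 95% intervals that cover counting error only, not the spread between mice or between cells. With 1 library per label, and clusters built from the same transcripts, no test was possible, so differences below are descriptions. A gene is called higher or lower in a cluster where its log2 level (with 0.1 added) departed from Basal by more than 1 in the same direction in both libraries, among genes whose mean over the 2 libraries reached 0.1 UMIs per 10000 in that cluster or in Basal. A gene near 0 in Basal is counted only where another cluster is high, so counts of called genes are descriptions and support nothing further.

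Against Basal, 2 of the 8 genes over that level were higher in Differentiated, and 0 were lower. They were Abca12 and Elovl4, and Alox12b and Aloxe3 were too low to be counted. Abca12 and Pnpla1 were counted only through their level in Differentiated, and Abca12 in Follicular only through its level there. Of the 7742 genes over that level, 2.45% were called higher and 3.32% lower in Differentiated. Shares and medians of all genes, here and below, are taken only over genes past the level filter. In Follicular, 4 of 7 genes were called higher, namely Elovl4, Elovl6, Scd1 and Mgst1, where 4.46% of all genes were called higher and 1.27% lower. No gene of the 10 was called in either direction in KC_Four (0 of 6, background 4.21% higher and 0.551% lower) or in KC_Five (0 of 6, background 2.31% higher and 0.4% lower). The median log2 difference from Basal over the genes counted was 0.78 and 0.67 in Differentiated, where the median of all genes was -0.09 and -0.08, and 2.39 and 1.36 in Follicular, where it was 0.07 and 0.07.

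**Figure D1:**
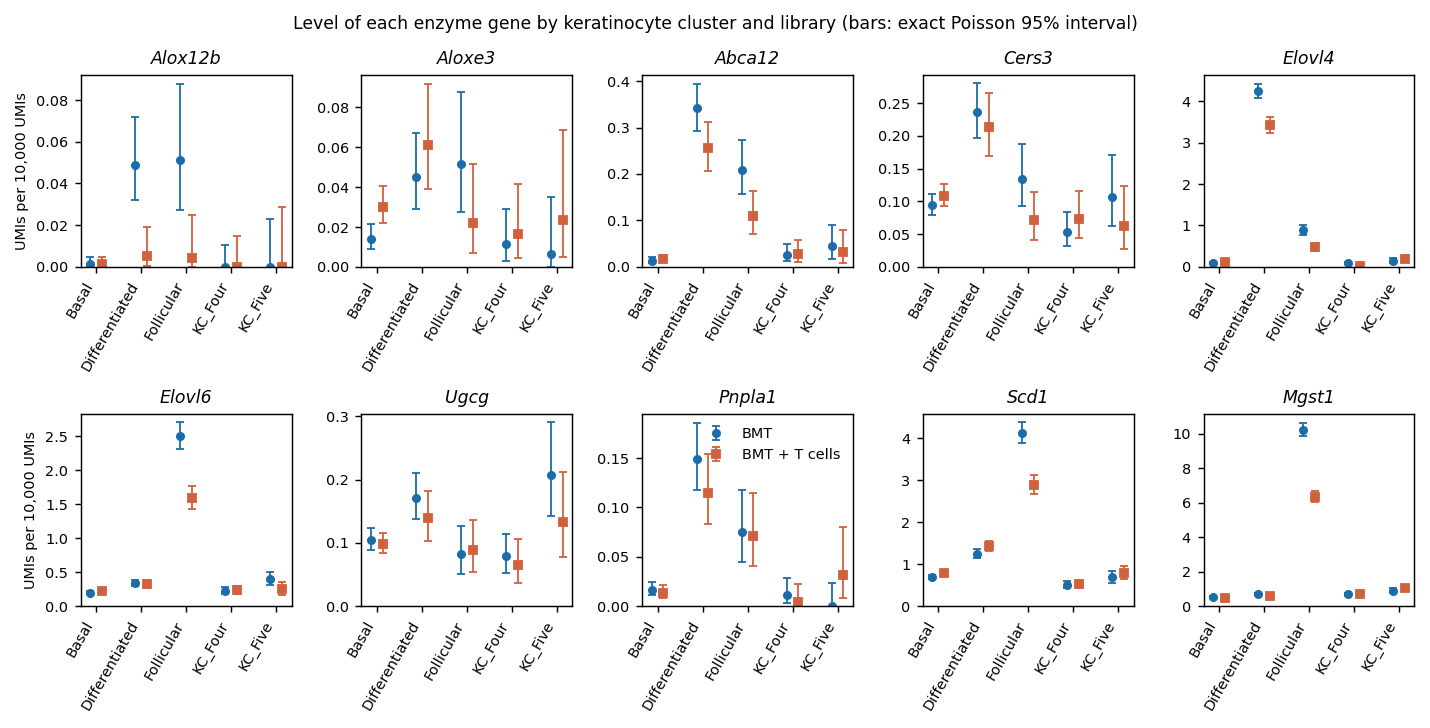
Level of each gene in UMIs per 10000 UMIs (vertical axes, linear and from 0, a separate range per gene) in the 5 clusters, with the BMT library as circles, the BMT + T cells library as squares and exact Poisson 95% intervals as bars. Elovl4, Abca12, Cers3 and Pnpla1 have their highest point in Differentiated in both libraries, whereas Elovl6, Scd1 and Mgst1 have it in Follicular.

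Among genes detected in every cluster, Elovl4 had the widest range. Its level was 0.0889 (0.0744 to 0.105) and 0.121 (0.104 to 0.140) in Basal and 4.25 (4.07 to 4.43) and 3.43 (3.24 to 3.62) in Differentiated, a ratio of 47.8 and 28.3. In Follicular it was 0.893 and 0.469, in KC_Five 0.145 and 0.195, and in KC_Four 0.0846 and 0.0244. The Differentiated intervals lay far above those of every other cluster in both libraries, and Follicular came next in both. An Elovl4 UMI was found in 85.0% and 81.9% of Differentiated cells but in 6.12% and 6.02% of Basal cells. With every cell drawn down to 2500 UMIs, these shares were 54.8% and 49.9% against 2.38% and 2.57%. CD11b+MHCII+ myeloid cells, which were sorted and sequenced as separate libraries, carried an Elovl4 UMI in 0 to 0.787% of donor cells at median depths of 7021.5 to 13387 UMIs and in 2.18% of host cells at a median of 4376. Free RNA in the keratinocyte suspensions was not measured by those libraries, and its part in the Basal share was not tested.

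The upstream windows of the 2 genes called in Differentiated and of 2 genes called in Follicular are shown because these pairs had their highest levels in different clusters. Each is the 250 bases before the start of the RefSeq gene model in GRCm38.p6, 5′ to 3′ on the strand of the gene, in lower case with motif matches in capitals. Elovl4 lies at chr9:83778692-83806305 and its window at chr9:83806306-83806555 on the minus strand. Abca12 lies at chr1:71243090-71414910 and its window at chr1:71414911-71415160 on the minus strand. Elovl6 lies at chr3:129532386-129638495 and its window at chr3:129532136-129532385 on the plus strand. Mgst1 lies at chr6:138140527-138156755, and the first of its 2 listed windows is at chr6:138140277-138140526 on the plus strand.
Elovl4: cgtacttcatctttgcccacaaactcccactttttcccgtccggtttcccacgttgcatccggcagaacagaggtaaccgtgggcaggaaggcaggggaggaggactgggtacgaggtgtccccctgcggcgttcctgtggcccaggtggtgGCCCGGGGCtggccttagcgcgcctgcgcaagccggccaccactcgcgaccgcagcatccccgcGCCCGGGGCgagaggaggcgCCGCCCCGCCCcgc
Abca12: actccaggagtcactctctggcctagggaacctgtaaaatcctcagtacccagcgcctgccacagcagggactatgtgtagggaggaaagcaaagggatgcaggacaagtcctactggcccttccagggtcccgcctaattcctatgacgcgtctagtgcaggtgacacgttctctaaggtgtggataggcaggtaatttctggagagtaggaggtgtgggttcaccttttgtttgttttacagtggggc
Elovl6: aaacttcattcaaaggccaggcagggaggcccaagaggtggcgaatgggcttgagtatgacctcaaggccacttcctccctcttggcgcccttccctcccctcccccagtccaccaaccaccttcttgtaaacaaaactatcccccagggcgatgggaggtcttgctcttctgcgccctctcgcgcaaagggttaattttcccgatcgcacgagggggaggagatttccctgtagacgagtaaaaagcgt
Mgst1: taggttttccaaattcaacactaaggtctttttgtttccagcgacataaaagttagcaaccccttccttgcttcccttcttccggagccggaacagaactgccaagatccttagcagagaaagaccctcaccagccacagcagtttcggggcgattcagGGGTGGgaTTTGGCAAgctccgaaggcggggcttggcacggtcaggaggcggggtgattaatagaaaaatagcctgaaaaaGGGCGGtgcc
Motifs were searched on both strands. The TATA box was searched as TATAAA. The CCAAT box was searched under its own letters. The E-box was searched as CACGTG. The GC box was searched as GGGCGG, and the KLF motif as CCACCC. Searches with an open base were TGANTCA for AP-1, then AACCNGTT for grainyhead, then TCACNCCA for the sterol response element, then TTGCNNAA for C/EBP and lastly GCCNNNGGC for AP-2. The Elovl4 window held 2 overlapping GC boxes and 2 AP-2 matches, the Mgst1 window a GC box, a C/EBP match and a KLF match, and the Abca12 and Elovl6 windows none of these letters. Of 32851 windows of this length, 32.7% held the GC box, 13.7% the AP-2 letters, 9.56% the C/EBP letters and 28.1% the KLF letters. The TATA box (12.4% of windows), AP-1 (6.75%), the E-box (6.02%), grainyhead (1.79%) and sterol response letters (3.67%) were in 0 of the 9 member windows, and CCAAT (33.8%) was in that of Pnpla1 alone. Base composition differed, with 69.6% G and C in the Elovl4 window against 53.2% in Abca12, 56.4% in Elovl6 and 52.0% in Mgst1 and a median of 52.4% over all windows.

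Abca12 followed Elovl4 at a far lower count. Its level was 0.0135 (0.00823 to 0.0208) and 0.0178 (0.0117 to 0.0258) in Basal and 0.341 (0.293 to 0.395) and 0.256 (0.207 to 0.312) in Differentiated, 25.3-fold (15.9 to 42.5) and 14.4-fold (9.31 to 23.0) higher. Follicular was second at 0.209 and 0.111, 15.6 and 6.22 times Basal. KC_Four and KC_Five ranged from 0.0254 to 0.0440, and their intervals overlapped each other in both libraries. In Differentiated, 24.7% and 18.4% of cells had an Abca12 UMI, and the most in any 1 cell was 4 and 5. A long non-coding gene model, Gm39659, overlaps Abca12, and reads of the 2 may not be separable.

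Pnpla1 (chr17:28858286-28890308), the linoleate transferase, stood at 0.149 and 0.115 in Differentiated and 0.0168 and 0.0138 in Basal. The ratio of 8.84 (5.58 to 14.5) and 8.29 (4.81 to 14.7) was clear of 1 in both libraries. On the log2 scale with 0.1 added the difference was 1.09 and 0.91, so Pnpla1 missed the call in BMT + T cells. Follicular held 0.0751 and 0.0708, also above Basal. It rested on few molecules, with 127 and 85 UMIs in the whole of each library.

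Cers3 (chr7:66733118-66823692), the ceramide synthase, had a broader and shallower pattern. It was at 0.236 and 0.213 in Differentiated and 0.0943 and 0.109 in Basal, a ratio of 2.50 (1.95 to 3.20) and 1.96 (1.48 to 2.58). The Follicular level of 0.134 and 0.0708 had intervals that overlapped Basal in both libraries. A Cers3 UMI was found in 20.9% and 20.4% of Differentiated cells and in 7.60% and 8.29% of Basal cells. Ugcg (chr4:59189507-59222833), the glucosylceramide synthase, differed least between clusters. It was at 0.172 and 0.139 in Differentiated, 0.105 and 0.0987 in Basal, 0.207 and 0.133 in KC_Five, and between 0.0650 and 0.0884 in Follicular and KC_Four. KC_Five came first in BMT and Differentiated in BMT + T cells, with overlapping intervals, so their order was not resolved.

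The lipoxygenase pair stands side by side on chromosome 11, 7956 bases apart, with Aloxe3 at chr11:69125417-69149115 and Alox12b at chr11:69157072-69169791. Alox12b was detected as 26 UMIs in 14 Differentiated cells and 13 UMIs in 4 Follicular cells of the BMT library. In BMT + T cells the same clusters held 2 UMIs and 1 UMI. In BMT, 10 of the 13 Follicular UMIs lay in 1 cell. Basal held 2 UMIs in each library, and KC_Four and KC_Five held 0. With 3 UMIs taken as the limit that a count of 0 allows, this leaves room for 0.00846 (BMT, KC_Four) to 0.0234 (BMT + T cells, KC_Five) UMIs per 10000. Aloxe3 was at 24 and 23 UMIs in Differentiated, 21 and 46 in Basal, and 13 and 5 in Follicular. Its Differentiated level of 0.0452 and 0.0613 was 3.20 (1.71 to 6.04) and 2.02 (1.17 to 3.41) times Basal. Across cells the correlation of the pair was 0.22 and 0.19 (Pearson, 2836 and 2590 cells that share library and depth).

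A finer scale than the clusters came from the Krt10 level of each cell, a keratin switched on as cells leave the basal layer. Basal and Differentiated cells were split at 0, 10, 50 and 150 Krt10 UMIs per 10000. Elovl4 went from 0.0202 through 0.0853, 0.425 and 2.42 to 6.05 in BMT, and from 0.0432 through 0.0833, 0.389 and 1.93 to 5.26 in BMT + T cells. Each step was upward in both libraries, and the largest absolute step was the last. Abca12 stayed below 0.05 until Krt10 passed 50 and then reached 0.190 and 0.174, and 0.485 and 0.360 in the top group. Scd1 was 0.818 and 0.765 with no Krt10 and 1.44 and 1.81 in the top group, and Mgst1 moved little, between 0.447 and 0.711. The top group held 230 and 144 cells, of which 98.7% and 97.2% carried the name Differentiated.

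**Figure D2:**
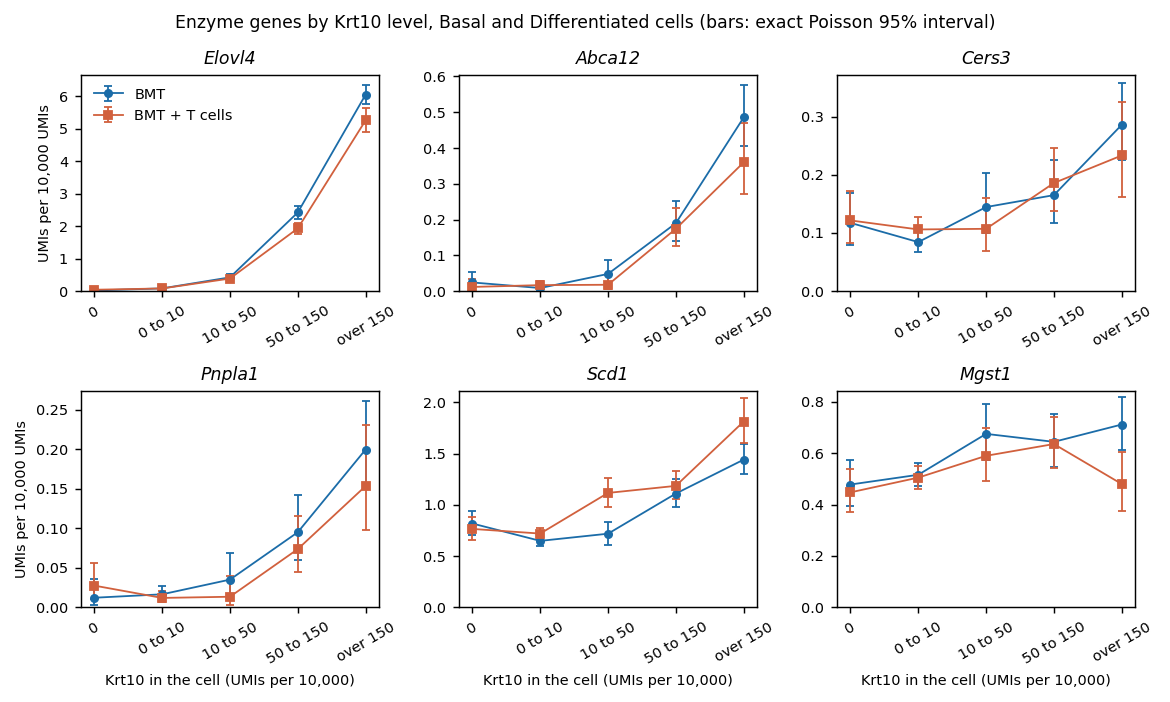
Level of 6 genes in UMIs per 10000 UMIs (vertical axes, linear, from 0) in Basal and Differentiated cells grouped by their Krt10 level (horizontal axis, UMIs per 10000), with exact Poisson 95% intervals; circles are BMT and squares BMT + T cells. Elovl4 climbs at each step to 6.05 and 5.26, Abca12 departs from its low level above 50, and Mgst1 stays between 0.447 and 0.711.

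Elovl6, Scd1 and Mgst1 formed the other group, highest in Follicular. In the paper, Mgst1 already marks a subcluster of the follicular cells, described as likely sebaceous. The Follicular level of Mgst1 thus restates a marker and is no separate result. Mgst1 was at 10.2 (9.84 to 10.6) and 6.35 (6.03 to 6.69) there, against 0.523 and 0.501 in Basal, a ratio of 19.6 and 12.7. Scd1 (chr19:44394450-44407709) was at 4.13 (3.88 to 4.38) and 2.89 (2.67 to 3.12), against 0.689 and 0.799 in Basal. Elovl6 was at 2.50 (2.31 to 2.70) and 1.59 (1.43 to 1.76), against 0.200 and 0.224. The Follicular intervals were above all other clusters for these 3 genes in both libraries. The long non-coding gene model Gm35986 reaches the first bases of Elovl6. Outside Follicular, Mgst1 ranged only from 0.501 to 1.05 and Elovl6 from 0.200 to 0.396. Scd1 was second in Differentiated at 1.25 and 1.42, about 1.8 times Basal (1.82, 1.65 to 2.00, and 1.78, 1.60 to 1.97). Scd1 has close paralogs, so part of its reads may be shared with them.

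These Follicular levels were carried by very few cells in the case of Elovl6 and Scd1. The 5 cells with the most Elovl6 UMIs held 70.1% and 84.1% of the 632 and 359 Elovl6 UMIs of the cluster, with a highest cell of 165 and 210 UMIs. The 5 cells with the most Scd1 UMIs held 64.6% and 68.9% of the cluster's 1044 and 653. Mgst1 was spread more widely, with 37.9% and 35.0% in 5 cells and a UMI in 75.9% and 68.0% of Follicular cells. By contrast, the 5 top cells of Elovl4 in Differentiated held 6.92% and 9.80%. At full depth, Scd1 was not found in a larger share of Follicular cells (38.1% and 42.1%) than of Basal cells (42.3% and 45.4%). At 2500 UMIs per cell the order was the other way, at 19.1% and 20.5% against 16.6% and 18.3%, with overlapping intervals in both libraries.

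**Figure D3:**
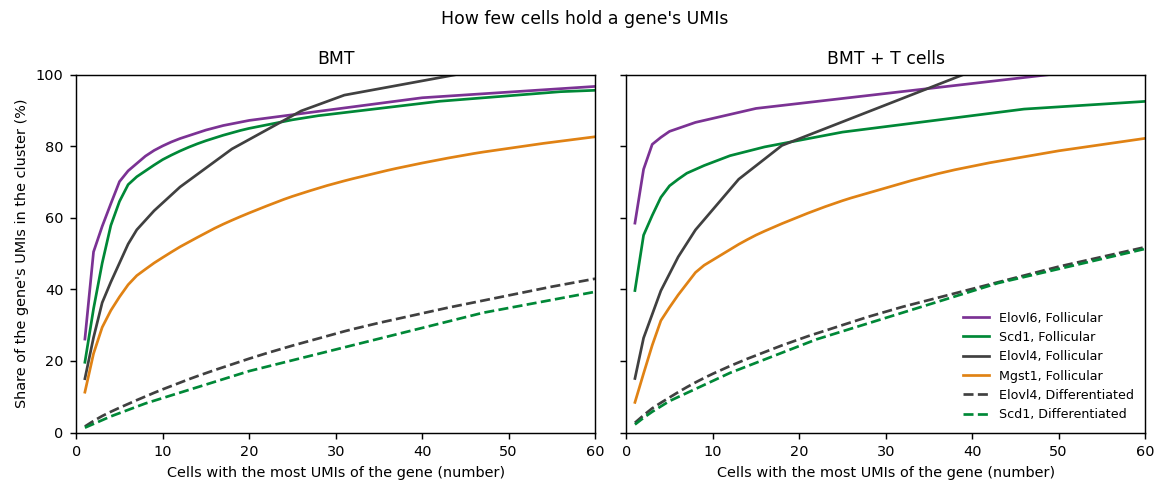
Share of a gene's UMIs in its cluster (vertical axis, %) held by the cells with the most of them (horizontal axis, number of cells added in order), with Follicular as solid and Differentiated as dashed lines and 1 panel per library. At 5 cells, Elovl6 in Follicular has reached 70.1% and 84.1%, and Elovl4 in Differentiated 6.92% and 9.80%.

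The levels were also taken without the 5 top cells of each gene in each cluster and library. Elovl6 in Follicular was then 4.11 (3.40 to 4.96) times Basal in BMT but 1.21 (0.896 to 1.61) times in BMT + T cells. For Scd1 the ratios were 2.23 (1.97 to 2.52) and 1.19 (1.02 to 1.38), and for Elovl4 6.39 and 3.11. Mgst1 remained 13.1 and 8.83 times Basal. The count of genes called higher in Follicular went from 4 to 1, which was Mgst1, the gene the paper used to name part of that cluster. In Differentiated the same step left both calls in place, with Elovl4 at 53.4 and 36.9 times Basal and Abca12 at 33.0 and 20.2 times.

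The cells with extreme Scd1 and Elovl6 shared several sebaceous transcripts in BMT, but in BMT + T cells only the cells ranked 1 and 2 held most of them. In the BMT library the 5 Follicular cells with the most UMIs of the 2 genes together held between 109 and 310 of them, with 88 to 292 Mgst1 UMIs each. In BMT + T cells the 5 held between 27 and 469, with 45 to 121 Mgst1 UMIs. These cells made up 3.04% and 3.11% of the cluster's UMIs. They held 79.9% and 83.7% of its UMIs of Cidea, a lipid droplet gene, 66.1% and 86.2% of Soat1, which esterifies cholesterol, and 85.8% and 98.2% of Elovl3, an elongase of the sebaceous gland. Cers4, a ceramide synthase, stood at 63.0% and 68.2%, and Fa2h, the fatty acid 2-hydroxylase, at 80.0% and 94.3%. Other lipid genes were less concentrated in these cells. Pparg, a regulator of sebocyte genes, stood at 15.1% and 47.4%, Fasn at 31.9% and 34.6%, and Acot7 at 10.2% and 10.3%. Krt79 was in all of these cells, while Krt17 was at 0 UMIs. Other sebaceous genes were scarce in the whole cluster, with Scd3 at 0 UMIs, Awat1 at 1 and 0 and Awat2 at 11 and 2. The set was uneven in BMT + T cells, where 2 of the 5 cells held at most 1 Cidea UMI and at most 6 Elovl6 UMIs. The cells ranked 3, 4 and 5 there held 0, 3 and 0 Elovl3 UMIs and 0, 1 and 0 Fa2h UMIs.

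The barrier group was at 0 in those same cells. Alox12b, Aloxe3, Abca12, Cers3, Elovl4, Ugcg and Pnpla1 had 0 UMIs in all 10 cells, which together held 76926 and 70380 UMIs. By the same limit of 3 UMIs, a count of 0 allows 0.390 and 0.426 UMIs per 10000. Elovl4 in the other Follicular cells stood at 0.921 and 0.484, in BMT + T cells too near the limit to show an absence. The limit counts UMIs and not cells, and an Elovl4 UMI was found in only 15.8% and 15.1% of Follicular cells. With 47.3% and 44.3% of its UMIs in 5 cells, a count of 0 in 5 others cannot show an absence in BMT either. Abca12 at 0.216 and 0.114 was below the limits, so a difference was not detectable at this depth. A split at 10 Scd1 and Elovl6 UMIs gave 20 and 7 cells. An Elovl4 UMI was found in 2 of the 20 (10.0%, 1.23 to 31.7) and 0 of the 7, against 16.3% and 15.5% of the other cells, with wide and overlapping intervals.

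**Figure D4:**
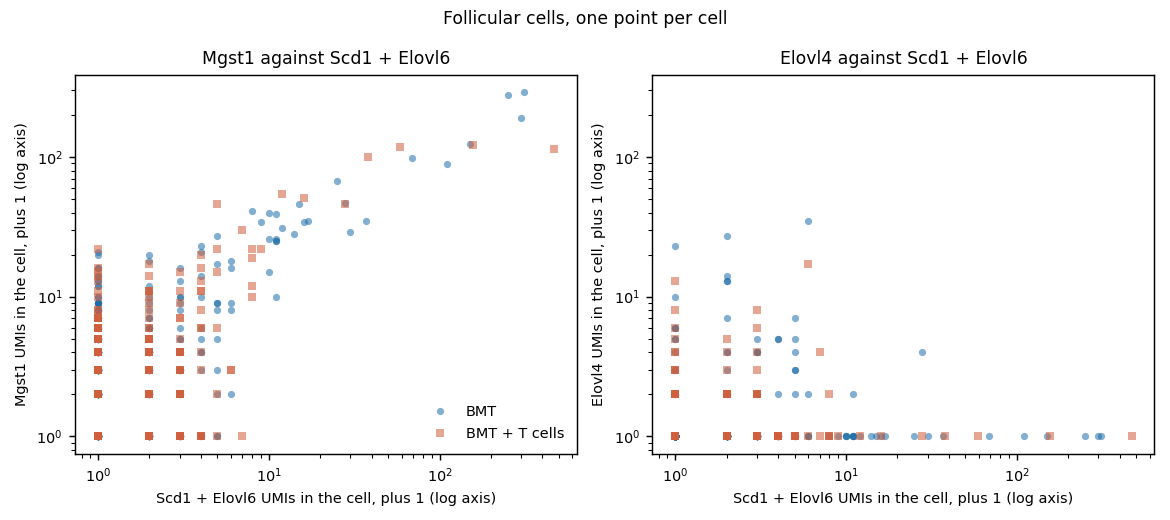
Each point is a Follicular cell (circles BMT, squares BMT + T cells), placed by its Scd1 and Elovl6 UMIs plus 1 (horizontal, log axis) and its Mgst1 (left) or Elovl4 (right) UMIs plus 1 (vertical, log axis). Cells with the most Scd1 and Elovl6 hold 45 to 292 Mgst1 UMIs and 0 of Elovl4.

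Mgst1 marked a wider band of Follicular cells than this extreme. Cells with 5 or more Mgst1 UMIs were 92 of 278 (33.1%, 27.6 to 39.0) in BMT and 62 of 259 (23.9%, 18.9 to 29.6) in BMT + T cells. The cut is a point on a continuum, with 11 and 12 cells at 5 UMIs and 13 and 16 at 4, and the cells above it were deeper (median 9746 and 9851 UMIs against 6925 and 6993). Elovl6 was at 5.58 and 4.72 in the cells above the cut and at 0.311 and 0.258 in the others, and Scd1 at 9.13 and 8.26 against 0.581 and 0.605. The 5 extreme cells of each library lay above the cut and supplied most of these UMIs. They held 443 of its 586 and 296 of its 318 Elovl6 UMIs, and 674 of its 958 and 450 of its 557 Scd1 UMIs. Pparg, a regulator of sebocyte genes, had 82 of its 86 UMIs and 53 of its 57 above the cut. Elovl4 went the other way in level, at 0.467 and 0.148 above the cut against 1.20 and 0.605 below it, and so did Krt17 at 6.26 and 9.03 against 39.0 and 34.7. The share of cells with an Elovl4 UMI differed little, at 14.1% and 12.9% above the cut against 16.7% and 15.7% below it. Few cells weighed on the Elovl4 levels, as 5 cells held 47.3% and 44.3% of its UMIs in the cluster. Below the cut, Scd1 was no higher than in Basal. By Krt10 level, Elovl4 in BMT Follicular cells was at 0.112 in the 87 cells with none, 0.477 in the 144 with up to 10 Krt10 UMIs per 10000 and 2.90 in the 26 with 10 to 50. In BMT + T cells this order was not seen, with 0.214 in the 93 cells with none and 0.170 in the 128 with up to 10, and the higher groups held under 20 cells each.

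The Follicular cluster also held transcripts of other cell types. Fibroblast markers summed to 3.04 and 3.27 UMIs per 10000, with all 5 detected and Dcn as 598 and 535 UMIs, and lay between 0 and 0.446 in the other clusters. Melanocyte markers summed to 0.877 and 1.23 in Follicular against at most 0.0674 elsewhere. Removing cells with 3 or more UMIs of 14 fibroblast, melanocyte and leukocyte markers took out 9.35% and 7.34% of Follicular cells and left all the counts of called genes as they were. Above the Mgst1 cut Col1a2, Col3a1 and Lum were at 0 UMIs in both libraries, but Dcn was at 44 and 9 UMIs, in 12.0% and 8.06% of cells against 11.8% and 9.64% below it. The melanocyte gene Pmel had 87 UMIs above the cut and 18 below it in BMT, and 0 and 116 in BMT + T cells. Tyrp1 had 33 and 9 UMIs in BMT, and 0 and 25 in BMT + T cells. The part of these cells in the levels above and below the cut was not tested.

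Between the labels, no gene of the 10 passed a log2 difference of 1 over the 5 clusters weighted equally (0 of 7 in either direction). Of all genes, 0.225% were called higher and 0.0529% lower in BMT + T cells. The median log2 difference of the 7 genes was -0.14, with -0.01 over all genes. The 3 largest log2 departures within a cluster were those of Elovl4, Mgst1 and Elovl6 in Follicular. Mgst1 there in BMT + T cells was 0.621 (0.581 to 0.662) of its BMT level, Elovl6 0.635 (0.557 to 0.725), Scd1 0.700 (0.634 to 0.772), Elovl4 0.525 (0.413 to 0.664) and Abca12 0.528 (0.314 to 0.864). None reached a log2 difference of -1 there, as 0.227% of all genes did. Leukocyte markers also moved with the label, at 0.192 to 0.434 UMIs per 10000 in the BMT clusters and 0.730 to 2.30 in BMT + T cells, nearly all of it Cd74, while the defining marker Ptprc was at 0 UMIs in BMT and 3 in BMT + T cells. Their part in these differences was not tested.

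The labels were then set side by side within the Mgst1 split. Within cells holding 5 or more Mgst1 UMIs the ratio was 0.905 (0.814 to 1.01) for Scd1 and 0.844 (0.734 to 0.970) for Elovl6. In the other cells the intervals of both spanned 1, at 1.04 (0.770 to 1.41) and 0.832 (0.532 to 1.30). Mgst1 itself set the split, so no ratio within the split is given for it. Because a handful of cells holds most of the Scd1 and Elovl6 UMIs, counting intervals are too narrow for these ratios. Ratios without the 5 top cells of each gene were taken only for the whole Follicular cluster, not within the split. Elovl6 then stood at 0.336 (0.245 to 0.454), Scd1 at 0.614 (0.515 to 0.731) and Mgst1 at 0.653 (0.601 to 0.708). A smaller share of such cells and less RNA per cell cannot be told apart from the cluster levels alone.

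In Differentiated, Elovl4 was 0.807 (0.753 to 0.864) and Abca12 0.749 (0.579 to 0.965) of the BMT level. Pnpla1 at 0.769, Ugcg at 0.807, Cers3 at 0.904 and Mgst1 at 0.871 had intervals that included 1, and Scd1 was at 1.14 (1.01 to 1.28). The BMT library also had more cells in the top Krt10 group, 230 against 144, where Elovl4 was at 5.26 (4.90 to 5.64) in BMT + T cells and 6.05 (5.76 to 6.35) in BMT. That group has no upper bound, so Krt10 was not matched between the libraries within it, and its part in the difference was not tested. Alox12b in Differentiated was at 2 UMIs against 26, a ratio of 0.109 (0.0125 to 0.434). In Basal, Elovl4 was at 1.36 (1.08 to 1.72), but 1 cell with 37 UMIs supplied part of this, and without the 5 top cells the ratio was 1.14 (0.875 to 1.48). Aloxe3 in Basal was at 2.14 (1.25 to 3.77) from 21 and 46 UMIs, and at 2.41 (1.29 to 4.72) without the 5 top cells.

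**Figure D5:**
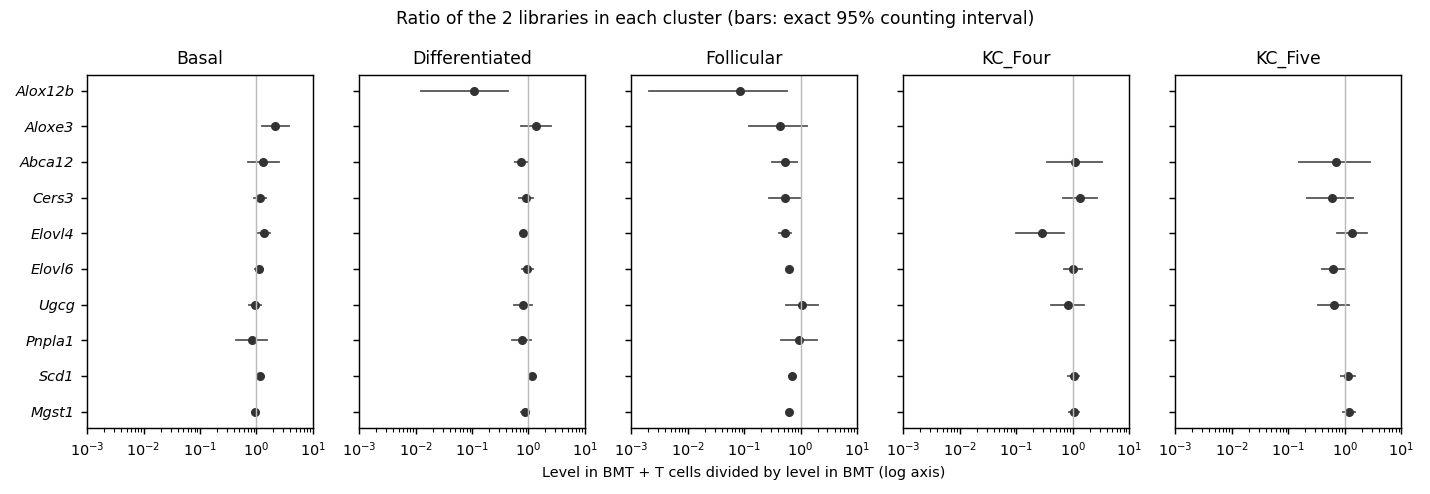
Level in BMT + T cells divided by the level in BMT (horizontal, log axis) for each gene in each cluster, with exact 95% counting intervals and a line at 1; pairs with under 10 UMIs in the 2 libraries together are not drawn. The Follicular ratios of Mgst1, Elovl6, Scd1 and Elovl4 are 0.621, 0.635, 0.700 and 0.525, and those of the same 4 genes in Basal are 0.958, 1.12, 1.16 and 1.36.

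The same genes were looked up in the CD11b+MHCII+ myeloid libraries, which are in tables made separately, so levels are set side by side and not compared by ratio. Alox12b is not listed there. In the 3 donor BMT libraries Abca12, Cers3 and Pnpla1 were each at or below 0.00171, and Elovl4 reached 0.0121. Ugcg, by contrast, was at 0.230, 0.433 and 0.245, and at 0.225 in the donor BMT + T cells library, where keratinocyte clusters ranged from 0.0650 to 0.207. Mgst1 was at 0.851, 0.593 and 0.701 in the 3 donor BMT libraries and 0.380 in the donor BMT + T cells library. In the single host BMT library, Aloxe3 was at 0.200 with a UMI in 10.1% of cells, against at most 0.0613 and 5.38% in any keratinocyte cluster, and Abca12, Pnpla1 and Elovl4 were at 0.0583, 0.0622 and 0.0428. That library had the lowest depth, at a median of 4376 UMIs per cell.

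The genes whose levels across cells were most like each of the 10 were taken by the lower of the Pearson correlations in the 2 libraries, among 11156 genes found in at least 1% of cells of both, with the 10 themselves left out as candidates. Elovl4 was nearest to Acer1, an alkaline ceramidase (0.67 and 0.65), Lypd3 (0.66 and 0.64) and Krt10 (0.71 and 0.63). Abca12 was nearest to Sbsn (0.40 and 0.34), Ly6g6c (0.43 and 0.34) and Fabp5 (0.39 and 0.32), and Pnpla1 to Rhov, Ly6g6c and Ly6g6e at 0.20 to 0.28. Within the 10, Elovl4 correlated with Abca12 at 0.43 and 0.34 and with Pnpla1 at 0.25 and 0.23. Mgst1 was nearest to Igfbp4 (0.38 and 0.36), Aadac (0.41 and 0.33) and Irx1 (0.38 and 0.32). The genes most like Elovl6 included Sccpdh (0.32 and 0.17) and the sterol enzyme Cyp51 (0.19 and 0.16). Scd1, although highest in Follicular, was nearest to Acer1, Fabp5 and Dgat2 at 0.18 to 0.22, and 2 of these 3 are also named above for Elovl4 or Abca12. Alox12b was nearest to Dnase1l3 (0.32 and 0.31), Cldn4 and 2310046K23Rik. For Cers3, Aloxe3 and Ugcg no gene outside the 10 passed 0.17 in both libraries. All of these rest on cells of the same 2 libraries and on sparse counts.

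Other genes of the pathway gave the setting. Of 16 further ceramide genes counted, 4 were higher and 1 lower in Differentiated. Acer1 was at 3.76 and 3.44 there against 0.311 and 0.256 in Basal, Cers4 at 0.658 and 0.714 against 0.141 and 0.171, and Cyp4f39, which hydroxylates the ultra-long chain, at 0.371 and 0.333 against 0.0141 and 0.0138. Cers2, the synthase of shorter very-long chains, was the lower gene, at 0.0264 and 0.0240 against 0.312 and 0.304. Cers4 was higher still in Follicular, at 2.81 and 1.71, where 3 of 16 were called higher and Fa2h stood at 0.336 and 0.155. Of 8 lipoxygenase and hepoxilin genes 5 were too low to be counted in Differentiated. The other 3, Alox12e, Alox12 and Ephx3, were counted only through their level there, so their calls follow from the filter. Alox12e stood at 1.59 and 0.674 in Differentiated and at 1.41 and 1.21 in Follicular against 0.0182 and 0.00395 in Basal. Ephx3, an epoxide hydrolase, stood at 0.223 and 0.165 in Differentiated, where Tgm1 was at 0 UMIs.

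Among elongation genes, Elovl7 and Acsl1 were the 2 of 8 higher in Differentiated (Acsl1 1.30 and 1.44 against 0.340 and 0.375), and Elovl3 and Acot7 the 2 of 10 higher in Follicular. Lipid storage and secretion gave 3 of 8 in Differentiated, with Dgat2 at 0.835 and 0.765 against 0.0559 and 0.0572, Abhd5, a partner of PNPLA1, at 1.91 and 1.84 against 0.830 and 0.831, and Fabp5. In Follicular 1 of 9 was higher, and it was Dgat2. Sterol and fatty acid synthesis gave 2 of 12 in Differentiated and 4 of 13 in Follicular, with Sult2b1, a cholesterol sulfotransferase, at 2.02 and 1.65 in Differentiated against 0.0660 and 0.0796 in Basal. Of 13 sebaceous genes 7 were too low to be counted in Follicular. The 4 called higher there, Pparg, Soat1, Cidea and Krt79, were counted only through Follicular, and Krt79 is also a marker of that cluster, so these calls follow from the filter. None of the 2 counted in Differentiated was called. In Follicular, Soat1 was at 1.17 and 0.703 and Cidea at 1.02 and 0.433, and the defining genes Awat1 and Scd3 were at or near 0. Of the barrier regulators Grhl3 (0.394 and 0.328 against 0.0438 and 0.0579) and Cebpa were 2 of 10 higher in Differentiated, and in Follicular Cebpb was higher and Rora lower of 9. Between the labels 0 genes in any of these lists passed a log2 difference of 1 over the 5 clusters weighted equally. Within single clusters, 3 of these genes passed it, a count chosen after seeing the data (1 of 49 in Basal, 1 of 58 in Differentiated, 1 of 64 in Follicular, 1 of 49 in KC_Four and 0 of 48 in KC_Five). The share of all genes past this fold was taken only in Follicular, where 0.227% were lower. The other counts therefore have no share to be read against. Fabp5, a fatty acid binding protein, had a log2 difference of 2.31 in Basal, from 568 and 3475 UMIs, but 1 cell held 1350 of the latter and 5 cells 76.1%, and the shares of cells with a UMI were 16.4% and 17.2%. In KC_Four the Fabp5 difference was -1.03, from 216 and 61 UMIs. Alox12e in Differentiated was at 0.425 (0.367 to 0.489) of its BMT level, with a UMI in 37.9% and 16.1% of cells. The Cidea difference in Follicular was -1.08, and 5 cells held 80.3% and 86.7% of its UMIs.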

How the data were processed

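Cells were sequenced with a 10x 5′ kit; processing notes of the series name kallisto, bustools, Seurat and the GRCm38 build, with versions not given in the sources used here. By the study's methods, cells under 500 genes or over 20% mitochondrial UMIs and called doublets were removed before clustering. The authors deposited 1 keratinocyte table of natural log values, ln(1 + UMIs per 10000), and a table of cell labels with the percent of mitochondrial UMIs per cell. Every one of 15311900 values gave a whole UMI within 0.001 in 5426 cells, so UMIs were recovered. Donor myeloid tables list a median of 91.3% of each cell's UMIs.

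UMIs were summed per cluster and library and divided by the cells' total UMIs (SciPy 1.17.1 and NumPy 2.4.6 under Python 3.11.15). Intervals were exact Poisson for levels, Clopper-Pearson for shares and conditional binomial for ratios, at 95%. The named genes are the 10 members, up to 4 examples per pathway list ranked by the smaller of the 2 libraries' differences, and the 3 nearest genes per member; some genes that this rule names are not reported here. The members and lists were chosen with earlier results of these data known. Cells removed or drawn down, other pseudocounts, folds and weights, and the removal of top cells (added after seeing the data) were tried. Promoter windows and gene positions came from RefSeq tables of GRCm38.p6, which held windows for 8 of 10 members.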

Additional observations from a re-analysis of the deposited data

Results flagged for a closer look

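For 2 of the genes the labels differed in opposite directions in different clusters, each with a counting interval clear of 1; the difference between clusters was not tested, since each label has 1 library. Elovl4 in BMT + T cells was 1.36 times its BMT level in Basal but 0.807 times in Differentiated, 0.525 times in Follicular and 0.288 times in KC_Four. The KC_Four ratio came from 30 and 6 UMIs, and in Basal 1 cell of the BMT + T cells library held 37 of 184 UMIs; without the 5 top cells the Basal ratio was 1.14 (0.875 to 1.48). Scd1 was 1.16 times its BMT level in Basal and 1.14 times in Differentiated but 0.7 times in Follicular. Without the 5 top cells the Scd1 ratios were 1.15 (1.06 to 1.26), 1.10 (0.973 to 1.24) and 0.614 (0.515 to 0.731), so the Differentiated interval then included 1.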

How the results depend on the processing

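Of the 120 counts of called genes under the alternatives, 116 stayed within 1.5 times of the reported count. Most reported counts were 0, and a 0 that stayed 0 was scored as unchanged, so this figure says little about the counts above 0. In Differentiated the count of 2 higher genes became 1 (Elovl4) with a pseudocount of 1 and 5 with a fold of 1.5, when Cers3, Pnpla1 and Scd1 joined. In KC_Five a fold of 1.5 gave 1 gene, Mgst1. In Follicular the count of 4 became 1 without the 5 cells with the most UMIs of the gene, an alternative chosen after seeing the data. Without Follicular cells holding 5 or more Mgst1 UMIs, also chosen later, the log2 difference of Scd1 from Basal reversed to -0.21 and -0.35, and 3 genes (Abca12, Elovl4, Mgst1) were called. Of 600 single differences, 114 moved beyond their counting interval, 62 of them with another pseudocount, which sets the scale of low genes. The label comparison gave 0 genes in each direction under all the alternatives run, leaving out each cluster among them. No paired analysis was possible because each label has 1 keratinocyte library. Depth limits Alox12b, Aloxe3, Pnpla1 and Abca12, which had at most 270 UMIs in a library, and the number of extreme cells, not depth, limits Elovl6 and Scd1 in Follicular.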

Other observations

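In KC_Five, the Cdc20-high cluster, Scd2, Sqle and Insig1 of the sterol and fatty acid synthesis list were higher than in Basal. Scd2 stood at 1.02 and 0.985 UMIs per 10000 against 0.361 and 0.349, Sqle at 0.804 and 0.672 against 0.167 and 0.168, and Insig1 at 0.584 and 0.625 against 0.104 and 0.0835. Scd1 did not share this pattern, at 0.685 and 0.781 in KC_Five against 0.689 and 0.799 in Basal. In the storage and secretion list, Abcg1, a sterol exporter, was the only one of 7 genes counted that was lower there, at 0.377 and 0.430 against 1.03 and 1.05.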
